A study of Homo sapiens with 8 samples.

Results

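The genes described here are 9 negative feedback genes of the ERK pathway: the phosphatase genes DUSP4, DUSP5 and DUSP6, the Sprouty genes SPRY1, SPRY2 and SPRY4, and the Sprouty-related genes SPRED1, SPRED2 and SPRED3. They were chosen by name as ERK-induced inhibitors, with earlier results of these data known. All 9 had a row among the 61228 genes of the count table. All 9 were also among the 15568 genes with enough counts to be tested. The cells were MDA-MB-231, an established line of triple-negative breast cancer, and their polyadenylated RNA was sequenced. There were 4 groups of 2 libraries. The first held ETV1, ETV4 and ETV5 knockout cells, nucleofected with Cas9 and guides to those genes, in collagen I gels. The second held control gels, whose label names Cas9 and control guides. The third held knockout monolayers on plastic, made with Cas9 and guides to the same genes, and the fourth control monolayers, whose label names control guides alone. The sources used here do not say whether the control monolayers received Cas9, whether the knockout cells are a pool or a clone, how long they were cultured, which of 2 collagen concentrations each gel had, or whether replicate libraries are separate cultures. An effect of Cas9 therefore cannot be told apart from the knockout effect in monolayers, nor from the culture effect in control cells. The p values measure only the spread between these libraries. Gels were digested with collagenase before lysis, whereas monolayers were lysed directly, so digestion and culture also cannot be told apart.

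ERK is the last kinase of the cascade that runs from receptor tyrosine kinases through RAS, RAF and MEK. Active ERK switches on genes whose products shut the cascade down again. The DUSP enzymes remove the activating phosphates from ERK, Sprouty proteins act between the receptor and RAF, and SPRED proteins bring the RAS inhibitor neurofibromin to the membrane. ETV1, ETV4 and ETV5, the PEA3 group of ETS transcription factors, are themselves switched on by ERK signalling in many cells. ETS factors recognise a GGAA core in DNA.

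Library totals ran from 15824504 to 23896899 counts. The line's markers VIM, CD44 and KRT18 were expressed in every group, with VIM at 5320 to 7280 CPM (read counts relative to the TMM-adjusted depth of each library). The hormone receptor genes ESR1 and PGR averaged at most 0.0713 CPM in any group. ERBB2, also listed as a receptor low or absent in a triple-negative line, was expressed, at 57.6 to 68.1 CPM over the 4 groups. Of 12 leukocyte, endothelial and fibroblast markers, 3 reached 1 CPM in any library (PECAM1, COL1A1 and PDGFRB). The leukocyte marker PTPRC had 4 to 21 counts a library. The 12 markers summed to 17.7 and 18.2 CPM in knockout gels, 21.0 and 21.9 CPM in control gels, 31.9 and 32.9 CPM in knockout monolayers, and 27.4 and 27.9 CPM in control monolayers. That sum moved with the groups, and its part in the results was not tested. The targeted ETV1 averaged 139 ± 2.12 CPM in knockout gels against 219 ± 3.26 in control gels, and 143 ± 11.2 CPM in knockout monolayers against 202 ± 3.2 in control monolayers (SD, n = 2). ETV4 also fell in both cultures, and ETV5 stood at 116 ± 1.28 CPM in knockout gels and 114 ± 6.66 CPM in control gels (log2 0.02, 95% interval -0.09 to 0.13). Transcript counts do not measure editing or protein.

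The promoters of DUSP6, SPRY1 and SPRY4 are shown because these genes fell together in knockout cells of both cultures and encode a phosphatase and 2 Sprouty inhibitors. DUSP4 and DUSP5 also fell in both cultures but had no window that was used. Each window runs from 250 bases before to 50 bases after a transcript start, 5′ to 3′ on the gene's strand, from RefSeq on GRCh38.p14. Capitals mark the ETS core GGAA and its reverse complement TTCC.
DUSP6, chr12:89352452-89352751, minus strand: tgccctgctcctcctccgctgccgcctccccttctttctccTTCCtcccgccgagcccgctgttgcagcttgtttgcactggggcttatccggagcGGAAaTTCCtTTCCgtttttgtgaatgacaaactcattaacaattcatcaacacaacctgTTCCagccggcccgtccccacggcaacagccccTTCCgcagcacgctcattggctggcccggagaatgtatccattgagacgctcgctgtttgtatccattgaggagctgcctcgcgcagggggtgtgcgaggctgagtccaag
SPRY1, upstream start, chr4:123396545-123396844, plus strand: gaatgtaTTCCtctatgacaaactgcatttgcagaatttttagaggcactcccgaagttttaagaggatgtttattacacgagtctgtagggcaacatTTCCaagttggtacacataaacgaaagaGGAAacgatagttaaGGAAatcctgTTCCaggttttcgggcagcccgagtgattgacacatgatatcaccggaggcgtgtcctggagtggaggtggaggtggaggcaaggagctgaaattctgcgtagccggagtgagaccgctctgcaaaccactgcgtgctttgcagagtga
SPRY1, downstream start, chr4:123398136-123398435, plus strand: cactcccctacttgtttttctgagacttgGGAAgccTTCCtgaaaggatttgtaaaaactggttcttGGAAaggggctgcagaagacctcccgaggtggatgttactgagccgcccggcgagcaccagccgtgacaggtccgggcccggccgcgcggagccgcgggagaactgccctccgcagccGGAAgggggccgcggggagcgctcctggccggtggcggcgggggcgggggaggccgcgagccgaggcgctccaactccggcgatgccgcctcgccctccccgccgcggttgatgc
SPRY4, chr5:142324198-142324497, minus strand: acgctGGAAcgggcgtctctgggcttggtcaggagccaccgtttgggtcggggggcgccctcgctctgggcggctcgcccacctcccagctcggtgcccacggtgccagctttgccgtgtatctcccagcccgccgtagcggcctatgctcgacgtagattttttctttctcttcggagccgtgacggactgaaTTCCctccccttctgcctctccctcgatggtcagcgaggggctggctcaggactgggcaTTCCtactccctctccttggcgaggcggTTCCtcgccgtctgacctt
The DUSP6 window held 6 cores, the SPRY1 windows 5 and 4, and the SPRY4 window 4. Of all 35116 promoter windows of this length, 95.5% held at least 1 core on either strand, and the median was 3. The longer motif CGGAAG, which contains the core and was searched on both strands, occurred in 19.5% of all windows. Among these 4 windows it lay once in DUSP6 and once at the downstream SPRY1 start. The other longer motif, AGGAAG, occurred in 33.6% of all windows, once in DUSP6 and once at the same SPRY1 start. In all, 7 of the 9 genes had windows that were used, 12 in number. All 12 held GGAA, 3 held CGGAAG and 9 held AGGAAG. SPRY2, which did not pass the test for a knockout effect in either culture, had 3 windows with 3, 4 and 5 cores. These matches are letters in a sequence and were not tested as binding sites.

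**Figure D1:**
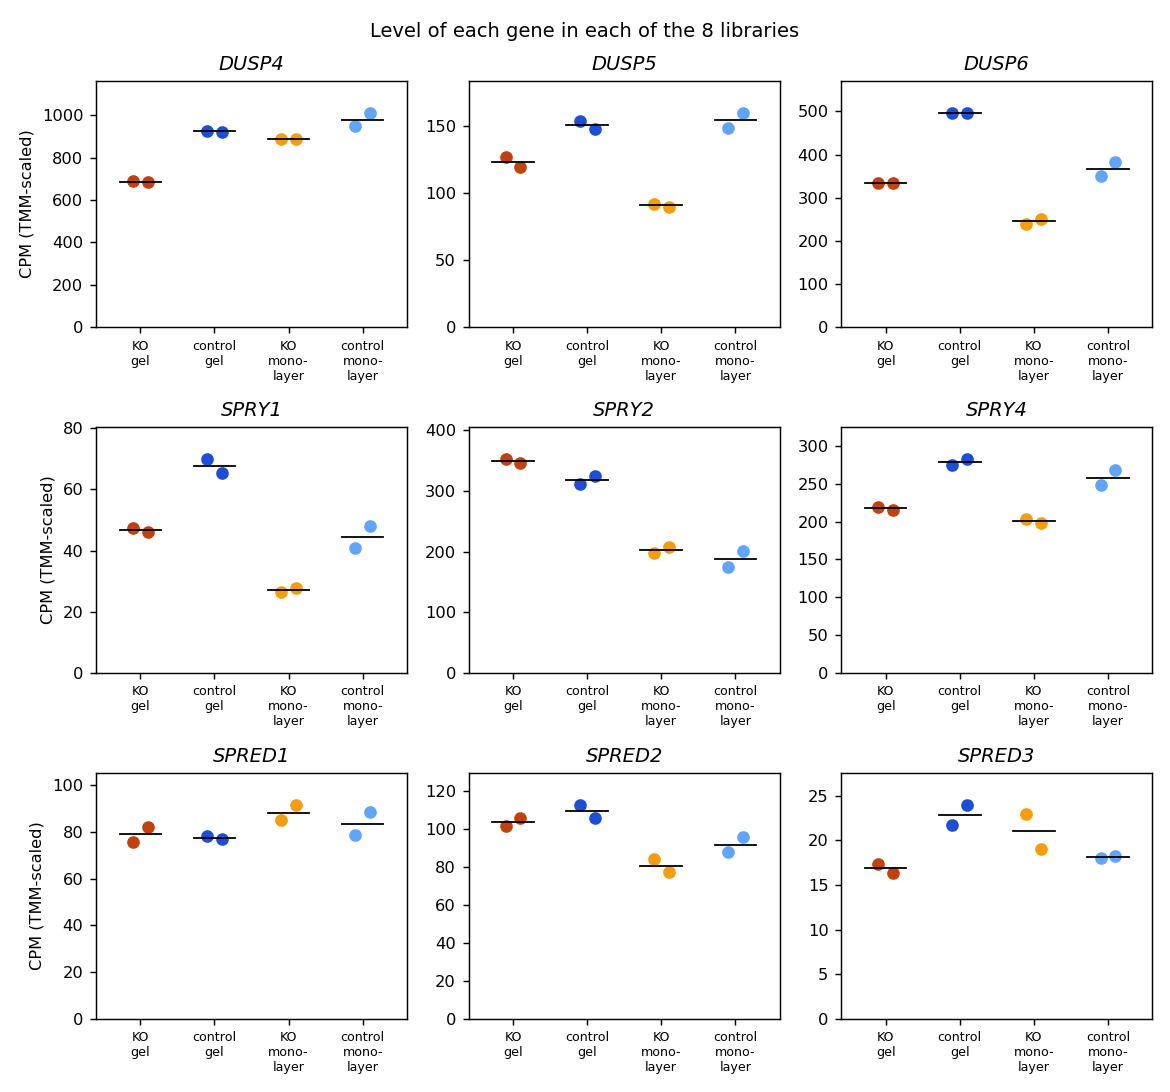
Level of each gene in CPM in each of the 8 libraries. Points are libraries and lines are means of 2 libraries, by group from left to right: knockout gels, control gels, knockout monolayers and control monolayers. DUSP6, SPRY1 and SPRY4 lie lower in both knockout groups than in the matching controls, while SPRY2 is high in both gel groups at 312 to 353 CPM.

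The comparison of knockout with control cells asks which feedback genes changed when the PEA3 factors were targeted. In gels, 6 of the 9 genes fell (DUSP4, DUSP5, DUSP6, SPRY1, SPRY4 and SPRED3), and in monolayers 6 fell (DUSP4, DUSP5, DUSP6, SPRY1, SPRY4 and SPRED2). Upwards, 0 passed in either culture by edgeR and 0 by DESeq2, with 1 gene (SPRY2) in gels and 2 (SPRY2 and SPRED3) in monolayers at an unadjusted p under 0.05 upwards. Of all tested genes, 23.9% passed in gels, 12.4% downwards and 11.5% upwards, and 19.2% passed in monolayers, 9.60% downwards and 9.60% upwards (edgeR's quasi-likelihood test, adjusted p under 0.05 over all tested genes). The median log2 change of the 9 genes was -0.36 in gels and -0.18 in monolayers, against 0.00 and 0.01 over all tested genes. In bulk RNA, fewer cells of a type and less RNA per cell cannot be told apart.

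The phosphatase genes fell in knockout cells of both cultures. DUSP6, whose product is a cytoplasmic phosphatase with a strong preference for ERK, had 335 and 333 CPM in knockout gels, against 496 and 496 CPM in control gels. In monolayers it had 240 and 250 CPM in knockout cells, against 350 and 383 CPM in control cells. The groups did not overlap in either culture, and each knockout group was lower. These are changes of -32.7% in gels (log2 -0.57 ± 0.047 SE, adjusted p = 9.83e-12 by edgeR) and -32.9% in monolayers (log2 -0.58 ± 0.048, adjusted p = 2.1e-11). The difference between the knockout effects, gels minus monolayers, was 0.00 on the log2 scale (95% interval -0.13 to 0.14, adjusted p = 0.983).

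DUSP5 encodes a nuclear phosphatase that acts on ERK. Its level was 127 and 120 CPM in knockout gels, against 154 and 148 CPM in control gels, and 92.4 and 89.7 CPM in knockout monolayers, against 149 and 160 CPM in control monolayers. All 4 knockout libraries were lower than all 4 control libraries. The gene fell by 18.4% in gels (log2 -0.29 ± 0.053, adjusted p = 6.98e-05 by edgeR) and by 41.1% in monolayers (log2 -0.76 ± 0.054, adjusted p = 4.14e-13). The knockout effect differed between the cultures by 0.47 on the log2 scale (95% interval 0.32 to 0.62, adjusted p = 6.78e-05), being smaller in gels.

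DUSP4, another nuclear MAP kinase phosphatase, showed the reverse order of effects. It had 690 and 683 CPM in knockout gels, against 927 and 920 CPM in control gels. In monolayers it had 890 and 887 CPM in knockout cells, against 948 and 1010 CPM in control cells. The groups did not overlap in either culture, with knockout gels the lowest of the 4. The gene fell by 25.7% in gels (log2 -0.43 ± 0.044, adjusted p = 2.78e-09 by edgeR) and fell by 8.98% in monolayers (log2 -0.14 ± 0.044, adjusted p = 0.0272). The monolayer call was lost without control monolayer library 2 (log2 -0.09, adjusted p = 0.213), without either knockout monolayer library (0.0914 and 0.167) and without either control gel library (0.0604 and 0.0607), in a range of 0.0056 to 0.213 over all alternatives. The difference between the cultures was -0.29 (95% interval -0.42 to -0.16, adjusted p = 0.00247), the opposite sign to that of DUSP5.

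The Sprouty genes split. SPRY1 had 47.3 and 46.1 CPM in knockout gels, against 70.0 and 65.5 CPM in control gels, and 26.4 and 27.7 CPM in knockout monolayers, against 40.7 and 48.0 CPM in control monolayers. Within each culture the knockout libraries lay below the controls, although knockout gels overlapped control monolayers. It fell by 31.1% in gels (log2 -0.54 ± 0.071, adjusted p = 3.8e-07 by edgeR) and fell by 38.5% in monolayers (log2 -0.70 ± 0.080, adjusted p = 2.26e-08), with a difference between the cultures of 0.17 (95% interval -0.05 to 0.38, adjusted p = 0.425).

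SPRY4 fell by 22.0% in each culture. Its level was 220 and 215 CPM in knockout gels, against 275 and 283 CPM in control gels, and 204 and 198 CPM in knockout monolayers, against 248 and 268 CPM in control monolayers. Every knockout library was lower than every control library, with log2 changes of -0.36 ± 0.048 in gels and -0.36 ± 0.048 in monolayers (adjusted p = 4.47e-07 and 6.75e-07 by edgeR). The difference between the cultures was 0.00 (95% interval -0.14 to 0.14).

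SPRY2, the Sprouty gene with the highest level per length of exon in each group, did not pass in either culture. It had 353 and 347 CPM in knockout gels, against 312 and 325 CPM in control gels, so that the knockout gels lay above the controls. In monolayers it had 197 and 208 CPM in knockout cells, against 175 and 201 CPM in control cells, and the groups overlapped. The log2 differences were 0.13 in gels (95% interval 0.03 to 0.24, adjusted p = 0.0595 by edgeR) and 0.11 in monolayers (0.00 to 0.22, adjusted p = 0.147). In gels SPRY2 passed upwards with DESeq2's size factors in edgeR (adjusted p = 0.0383), with library size alone (0.0318), with no filter on low counts (0.0472), without either control monolayer library (0.01 and 0.0272) and without knockout monolayer library 1 (0.0361), in a range of 0.01 to 0.347 over all alternatives. It also passed in monolayers without control monolayer library 2 (log2 0.22, adjusted p = 0.00504, in a range of 0.00504 to 0.998). Both its intervals exclude a fall of the size seen in SPRY1 and SPRY4.

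Among the SPRED genes, SPRED2 and SPRED3 each passed in 1 culture and SPRED1 in neither. SPRED1, the gene mutated in Legius syndrome, had 75.7 and 82.2 CPM in knockout gels, against 78.0 and 76.9 CPM in control gels. Its levels in monolayers were 84.9 and 91.6 CPM in knockout cells, against 78.8 and 88.3 CPM in control cells. The groups overlapped in both cultures, with log2 differences of 0.03 in gels (95% interval -0.10 to 0.16) and 0.09 in monolayers (-0.04 to 0.21).

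SPRED2, the close relative of SPRED1, had 102 and 106 CPM in knockout gels, against 113 and 106 CPM in control gels, and 84.1 and 77.6 CPM in knockout monolayers, against 87.8 and 96.0 CPM in control monolayers. In each culture both knockout libraries were lower than both controls, in gels by less than the rounding of the values shown for the closest pair. It fell by 11.8% in monolayers (log2 -0.18 ± 0.060, adjusted p = 0.0286 by edgeR), and its log2 difference in gels was -0.08 (95% interval -0.20 to 0.04, adjusted p = 0.357). The monolayer call was lost by DESeq2 (adjusted p = 0.0955), without control monolayer library 2 (log2 -0.12, adjusted p = 0.287) and without knockout monolayer library 2 (log2 -0.12, adjusted p = 0.31), in a range of 0.0112 to 0.31. The effects in the 2 cultures were not shown to differ (0.10, 95% interval -0.06 to 0.27, adjusted p = 0.542).

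SPRED3, the member with the lowest level, had 17.4 and 16.3 CPM in knockout gels, against 21.7 and 24.0 CPM in control gels. In monolayers it had 23.0 and 19.0 CPM in knockout cells, against 18.0 and 18.2 CPM in control cells. Knockout libraries were lower than controls in gels and higher in monolayers. The gene fell by 26.3% in gels (log2 -0.44 ± 0.098, adjusted p = 0.000964 by edgeR), and its log2 difference in monolayers was 0.21 (95% interval 0.01 to 0.41, adjusted p = 0.137). In monolayers it passed upwards without knockout monolayer library 2 (log2 0.35, adjusted p = 0.0391, in a range of 0.0391 to 0.809). The effects differed between cultures by -0.65 (95% interval -0.93 to -0.37, adjusted p = 0.00239). That call was lost without knockout monolayer library 1 (-0.48, adjusted p = 0.0605), in a range of 0.000488 to 0.0605.

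**Figure D2:**
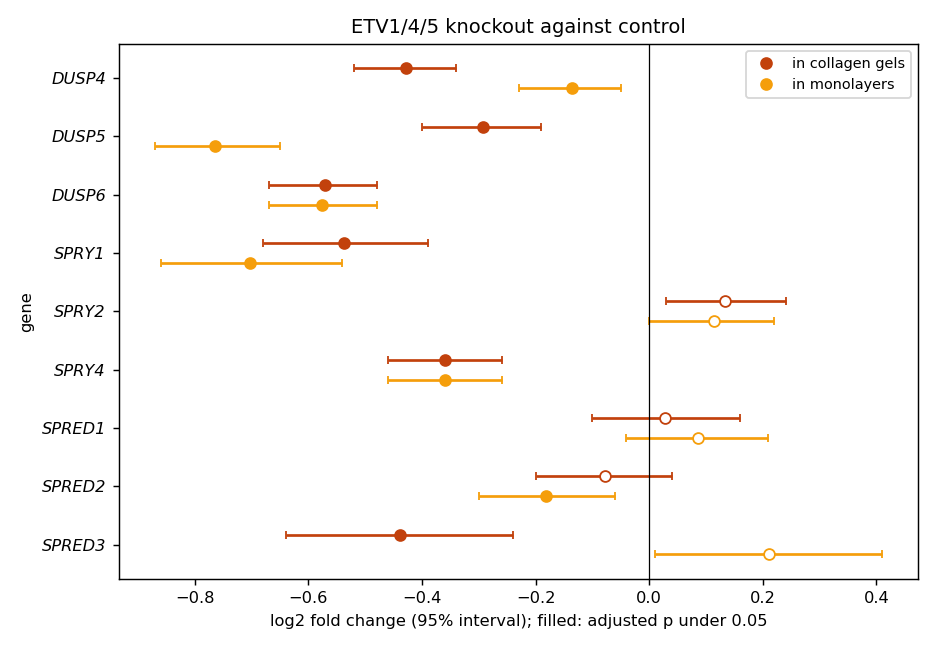
Log2 fold change of each gene in knockout against control cells, in collagen gels and in monolayers, with 95% intervals from the edgeR fit. Filled points had an adjusted p under 0.05. DUSP6 and SPRY4 have nearly the same value in both cultures (-0.57 and -0.58, -0.36 and -0.36), while DUSP4, DUSP5 and SPRED3 have separate intervals.

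Tested against a fold of 1.5 with edgeR's glmTreat, DUSP5 in monolayers was the 1 gene of the 9 that passed for the knockout (adjusted p = 0.0315), against 0.809% of all tested genes. In gels 0 of the 9 passed, against 1.05% of all tested genes. There, 0 had an unadjusted p under 0.05, and 0 passed by DESeq2. In monolayers DESeq2 also passed 0, and DUSP5 was lost without knockout monolayer library 2, control monolayer library 2 or either control gel library. The estimates themselves lay past that fold for DUSP5 and SPRY1 in monolayers and for no other of the 9 in either culture. Across the interaction, 3 of the 9 genes passed (DUSP5 upwards, DUSP4 and SPRED3 downwards), against 6.60% of all tested genes, 2.67% upwards and 3.94% downwards.

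The comparison of gels with monolayers asks how the same genes differ with the culture. In knockout cells 5 of 9 genes rose in gels (DUSP5, DUSP6, SPRY1, SPRY2 and SPRED2) and 3 fell (DUSP4, SPRED1 and SPRED3), against 38.0% of all tested genes, 20.1% upwards and 17.9% downwards. In control cells 5 rose (DUSP6, SPRY1, SPRY2, SPRED2 and SPRED3) and 0 fell, against 26.7% of all tested genes, 16.0% upwards and 10.7% downwards. Downwards in control cells, 0 also had an unadjusted p under 0.05 and 0 passed by DESeq2, although with library size alone DUSP4 and SPRED1 passed downwards. The median log2 difference of the 9 genes was 0.36 in knockout cells and 0.26 in control cells, against -0.01 and 0.01 over all tested genes. The share of upward calls among all genes depends on the scaling. It was 52.8% in knockout cells and 59.8% in control cells, against 40.6% and 43.4% with upper-quartile factors and 37.1% and 30.6% with library size alone.

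SPRY2 had the largest rise of the 9 genes in control cells, and SPRY1 and SPRY2 rose about equally in knockout cells. SPRY2 averaged 350 ± 4.14 CPM in knockout gels and 203 ± 7.95 CPM in knockout monolayers, a rise of 72.6% (log2 0.79 ± 0.053, adjusted p = 5.93e-13 by edgeR). In control cells it averaged 319 ± 9.01 CPM in gels and 188 ± 18.6 CPM in monolayers, a rise of 70.2% (log2 0.77 ± 0.053, adjusted p = 2.05e-12). It was the 1 gene of the 9 that passed the test against a fold of 1.5 in knockout cells (adjusted p = 0.00522, against 1.95% of all tested genes) and in control cells (adjusted p = 0.025, against 0.726%). With DESeq2 0 of the 9 passed that fold in either kind of cell. Without control monolayer library 1, 2 of the 9 passed it in knockout cells, and without knockout monolayer library 1, 0 did. In control cells 0 passed it with upper-quartile factors, with library size alone, and without control monolayer library 1, knockout monolayer library 1 or either control gel library.

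SPRY1 averaged 46.7 ± 0.815 CPM in knockout gels and 27.0 ± 0.886 CPM in knockout monolayers (log2 0.79 ± 0.080, adjusted p = 1.15e-09 by edgeR), and in control cells its log2 rise was 0.62 ± 0.071 (adjusted p = 2.98e-08). DUSP6 rose by 36.0% in knockout cells (log2 0.44 ± 0.048, adjusted p = 4.82e-09) and by 35.6% in control cells (log2 0.44 ± 0.047, adjusted p = 6.08e-09). Knockout gels, at 335 and 333 CPM, therefore lay below but near control monolayers, at 350 and 383 CPM. SPRED2 rose by 28.6% in knockout cells (adjusted p = 9.56e-06) and by 19.7% in control cells (adjusted p = 0.000918). The control call was lost without control monolayer library 1 (adjusted p = 0.0933) and control gel library 1 (0.0525), in a range of 0.00033 to 0.0933.

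DUSP5 and DUSP4 moved with the culture in knockout cells in opposite directions. DUSP5 rose by 35.5% in knockout gels (log2 0.44 ± 0.055, adjusted p = 1.08e-07 by edgeR), and in control cells its difference was -0.03 (95% interval -0.14 to 0.07). DUSP4 fell by 22.8% in knockout gels (log2 -0.37 ± 0.044, adjusted p = 3.86e-08), and in control cells its difference was -0.08 (-0.17 to 0.01, adjusted p = 0.18). That control value passed with upper-quartile factors (-0.13, adjusted p = 0.0338), with library size alone (-0.16, adjusted p = 0.0026) and without control monolayer library 1 (-0.14, adjusted p = 0.0439), in a range of 0.0026 to 0.66.

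SPRED3 fell by 19.7% in knockout gels (adjusted p = 0.0126 by edgeR) and rose by 26.1% in control gels (adjusted p = 0.00874). Both calls were lost by DESeq2 (adjusted p = 0.0691 and 0.0858). The fall was also lost without knockout monolayer library 1 (0.311) and knockout gel library 2 (0.096), in a range of 0.00308 to 0.311. The rise was lost with library size alone (0.0545), without control monolayer library 1 (0.0994) and without control gel library 2 (0.125), in a range of 0.00537 to 0.125. SPRED1 fell by 10.6% in knockout gels (log2 -0.16 ± 0.063, adjusted p = 0.0407), a call lost with no filter (0.0736), by DESeq2 (0.123), and without knockout monolayer library 2 (0.301), knockout gel library 1 (0.39) or either control gel library (0.065 and 0.0642), in a range of 0.000929 to 0.39. SPRY4 was higher in gels by 0.11 on the log2 scale in knockout cells (95% interval 0.02 to 0.21, adjusted p = 0.0624) and in control cells (0.02 to 0.21, adjusted p = 0.0716), which did not pass. It passed with the length and GC offset (0.0396 and 0.0324), in knockout cells without control monolayer library 1 (0.0261, in a range of 0.0261 to 0.443), and in control cells without control monolayer library 2 (0.0156, in a range of 0.0156 to 0.665).

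**Figure D3:**
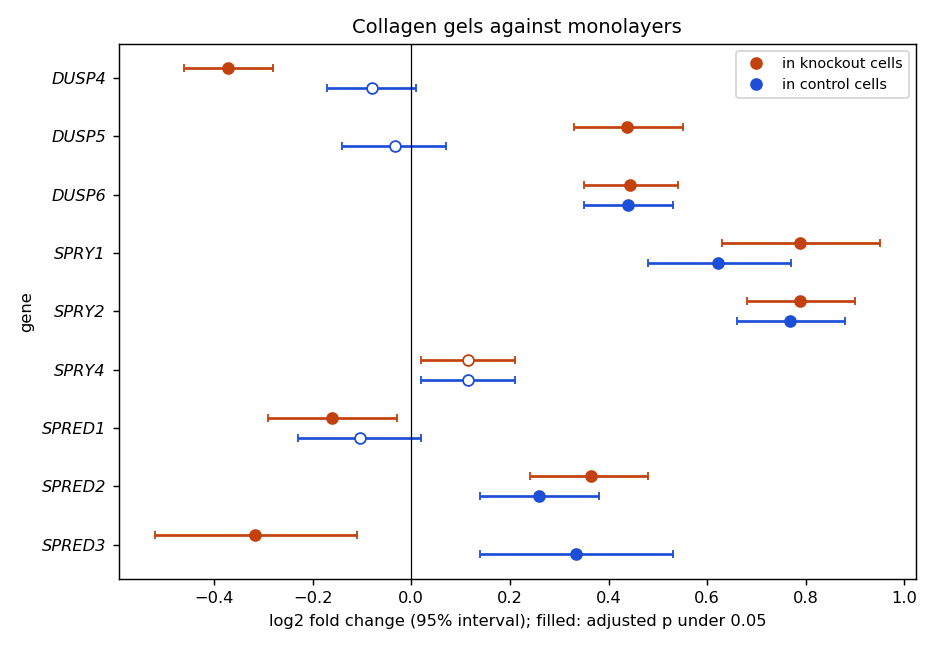
Log2 fold change of each gene in collagen gels against monolayers, in knockout and in control cells, with 95% intervals from the edgeR fit. Filled points had an adjusted p under 0.05. SPRY2, SPRY1 and DUSP6 are above 0 in both kinds of cell, SPRY2 at 0.79 and 0.77, and SPRED3 lies on opposite sides of 0.

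Genes of the immediate-early response, which stress and cell dissociation induce within minutes, moved with the gels. Of 11 tested, 9 rose in knockout gels and 10 rose in control gels, with median log2 changes of 1.41 and 1.74, against 20.1% and 16.0% of all tested genes that rose. FOS averaged 652 ± 4.39 CPM in knockout gels and 9.59 ± 0.53 CPM in knockout monolayers, and 697 ± 13.9 CPM in control gels and 7.77 ± 0.11 CPM in control monolayers. The 12 listed genes summed to 2020 and 2210 CPM in knockout gels, 2220 and 2300 CPM in control gels, 655 and 694 CPM in knockout monolayers, and 649 and 653 CPM in control monolayers. All 12 had counts in every group. Their part in the rise of SPRY1, SPRY2 and DUSP6 was not tested.

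Levels of the genes can be compared with each other only per length of exon, here in CPM per kb of the exons annotated for the gene in GENCODE v29. In knockout gels SPRY2 was highest, at 115 ± 1.36 CPM per kb, followed by DUSP4 at 94.6 ± 0.696 and DUSP6 at 72.1 ± 0.291. In control gels DUSP4 was highest, at 127 ± 0.701 CPM per kb, and DUSP6 at 107 ± 0.114 and SPRY2 at 105 ± 2.96 did not differ beyond their spread. In knockout monolayers DUSP4 was highest at 122 ± 0.269, then SPRY2 at 66.7 ± 2.62 and DUSP6 at 53.0 ± 1.56 CPM per kb. In control monolayers DUSP4 at 135 ± 5.62 and DUSP6 at 79.0 ± 5.02 CPM per kb came before SPRY2 at 61.8 ± 6.11 and DUSP5 at 59.2 ± 3.01, and that last pair did not differ beyond its spread. SPRY4 came after DUSP5 in every group, and SPRED2 after SPRY4. SPRED3 was lowest in every group, at 2.87 to 3.90 CPM per kb. SPRED1 and SPRY1 came between, with SPRED1 above SPRY1 in knockout monolayers (10.7 ± 0.578 and 6.82 ± 0.224 CPM per kb) and SPRY1 above SPRED1 in both gel groups. In control monolayers that pair did not differ beyond its spread, at 10.1 ± 0.812 for SPRED1 and 11.2 ± 1.3 for SPRY1.

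Summed per family, the 3 phosphatase genes came to 214 ± 2.85 CPM per kb in knockout gels, against 292 ± 2.32 in control gels. In monolayers they came to 210 ± 0.542 in knockout cells, against 273 ± 13.6 in control cells (SD, n = 2). The Sprouty sum was 160 ± 2.15 CPM per kb in knockout gels, against 165 ± 3.06 in control gels, and 104 ± 2.24 in knockout monolayers, against 112 ± 9.53 in control monolayers. Within it, SPRY2 made up 71.9% ± 0.12 in knockout gels, against 63.8% ± 0.62 in control gels, and 64.0% ± 1.1 in knockout monolayers, against 55.0% ± 0.77 in control monolayers. So the Sprouty sum differed between knockout and control cells by less than the phosphatase sum did, and SPRY2 took the larger share of it in knockout cells. The SPRED sum was 29.9 to 34.6 CPM per kb over the 4 groups. These sums are given as a description and were not tested.

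**Figure D4:**
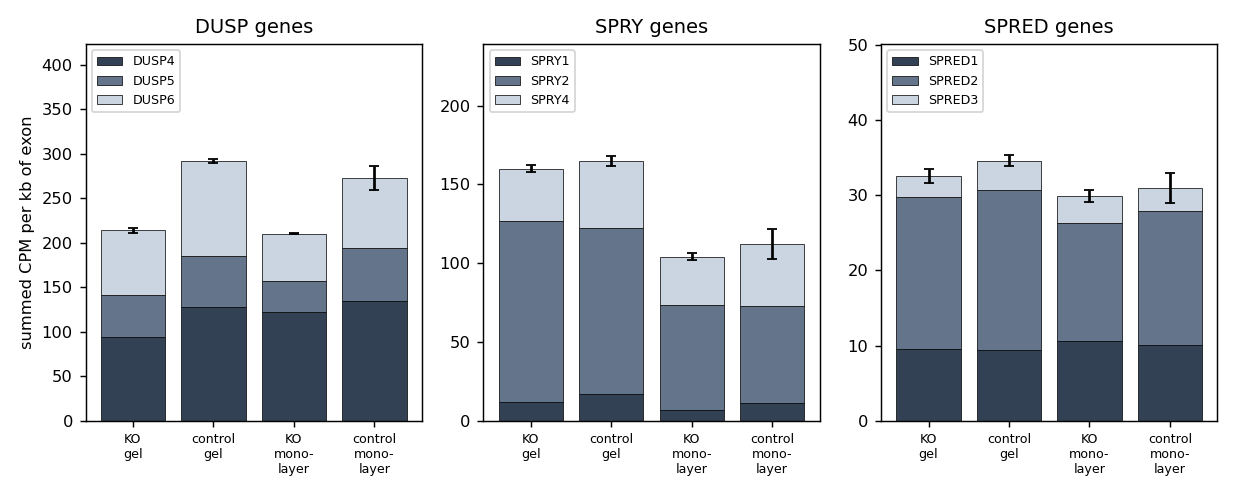
Summed level of the 3 genes of each family in CPM per kb of exon, split by gene, as means of 2 libraries with SD of the sum as error bars. The phosphatase sum is lower in knockout than in control cells in both cultures (214 and 292 in gels, 210 and 273 in monolayers), and the Sprouty sum is higher in gels than in monolayers.

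Other genes of the pathway are given from 6 lists and the targeted genes, with log2 changes of those that passed. Of 19 genes of the core cascade, from receptor to kinase, 1 rose and 3 fell in knockout gels and 2 rose and 3 fell in knockout monolayers, with medians of 0.06 and 0.01. Those counts lie near the shares of all tested genes that passed, 23.9% in gels and 19.2% in monolayers. EGFR, a receptor upstream of RAS, fell by 0.25 on the log2 scale in knockout monolayers, SHC1 rose by 0.20 and PTPN11 changed by -0.16. In gels MAP2K1, which encodes a MEK kinase, changed by -0.29, SOS2 by -0.20 and PTPN11 by 0.13. Of 12 other genes induced by ERK, 4 rose and 3 fell in knockout cells of each culture, with medians of 0.01 in gels and 0.07 in monolayers, beside the same shares of all tested genes. EREG rose by 0.34 in gels, where EPHA2 changed by -0.28 and PLAUR by -0.32. In monolayers IER3 rose by 0.25, and MYC and EPHA2 changed by -0.31 and -0.21. The 9 feedback genes had 6 falls and 0 rises in each culture, and the difference from these lists was not tested.

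Of 6 other MAP kinase phosphatases tested, 3 rose, 0 fell and 3 did not pass in knockout gels, and 2 rose, 2 fell and 2 did not pass in knockout monolayers. Of all tested genes, 23.9% passed in gels and 19.2% in monolayers, which also holds beside the counts of the other brakes and of the partners. DUSP10, which acts on the stress kinases JNK and p38, averaged 12.9 ± 0.278 CPM in knockout gels, against 8.82 ± 0.867 CPM in control gels (log2 0.55, adjusted p = 0.00078 by edgeR). It averaged 10.5 ± 0.0107 CPM in knockout monolayers, against 7.37 ± 0.16 CPM in control monolayers (log2 0.51, adjusted p = 0.00425). DUSP7, an ERK phosphatase, rose by 0.25 in knockout monolayers, and DUSP2 rose by 0.93 in knockout gels, where it averaged 1.57 ± 0.11 CPM, against 0.827 ± 0.15 CPM in control gels. DUSP1 rose in gels by 0.34 and changed by -0.34 in monolayers. Of 11 other brakes on RAS and ERK, 1 rose and 1 fell in knockout gels (DAB2IP by 0.16 and ERRFI1 by -0.17). In knockout monolayers 2 rose and 1 fell (DAB2IP by 0.28, LRIG1 by 0.79 and NF1 by -0.25). LRIG1 was low, at 4.85 ± 0.0661 CPM in knockout monolayers, against 2.92 ± 1.05 CPM in control monolayers. Of 7 partners and regulators of Sprouty and SPRED, CAV1 and PPP2CA rose in knockout gels (0.17 and 0.20) and CAV1 in knockout monolayers (0.26).

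With the culture, 9 of the 12 other ERK-induced genes rose in gels and 0 fell, in knockout and in control cells alike, with medians of 0.20 and 0.19. Of all tested genes, 20.1% rose and 17.9% fell in knockout gels, and 16.0% rose and 10.7% fell in control gels, which applies to each list. EREG and HBEGF, genes of EGF receptor ligands, rose by 0.75 and 0.71 in knockout gels and by 0.56 and 0.84 in control gels. MYC rose by 0.38 in knockout gels and PLAUR by 0.59 in control gels. Of the core cascade, 6 rose and 3 fell in knockout gels and 6 rose and 1 fell in control gels, EGFR, PTPN11 and SHC1 by 0.39, 0.23 and -0.23 in knockout cells and MAP2K1, GRB2 and NRAS by 0.26, 0.20 and 0.22 in control cells. Of the other brakes, 2 rose and 4 fell in knockout gels and 2 rose and 5 fell in control gels. RASA1 and ERRFI1 changed by -0.35 and -0.36 in knockout cells and by -0.33 and -0.29 in control cells, IL17RD by -0.39 in knockout cells and DAB2IP by 0.28 in control cells. DUSP16 changed by -0.55 in knockout and -0.51 in control gels, DUSP8 by -1.33 in control gels, and DUSP2 by 1.95 in knockout gels. The levels of DUSP8 and DUSP2 were low. DUSP8 averaged 1.66 CPM in control gels and 4.13 CPM in control monolayers. DUSP2 averaged 1.57 CPM in knockout gels and 0.399 CPM in knockout monolayers. DUSP1 rose by 3.52 in knockout gels and by 2.85 in control gels. FOS, EGR1 and ZFP36 rose by 6.09, 1.41 and 1.90 in knockout gels and by 6.48, 1.74 and 1.96 in control gels. Of the partners, PPP2CA rose by 0.34 and CBLB fell by 0.38 in knockout gels, and PPP2CA rose by 0.20 and CBL fell by 0.37 in control gels. The targeted ETV4 rose by 0.19 in control gels.

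**Figure D5:**
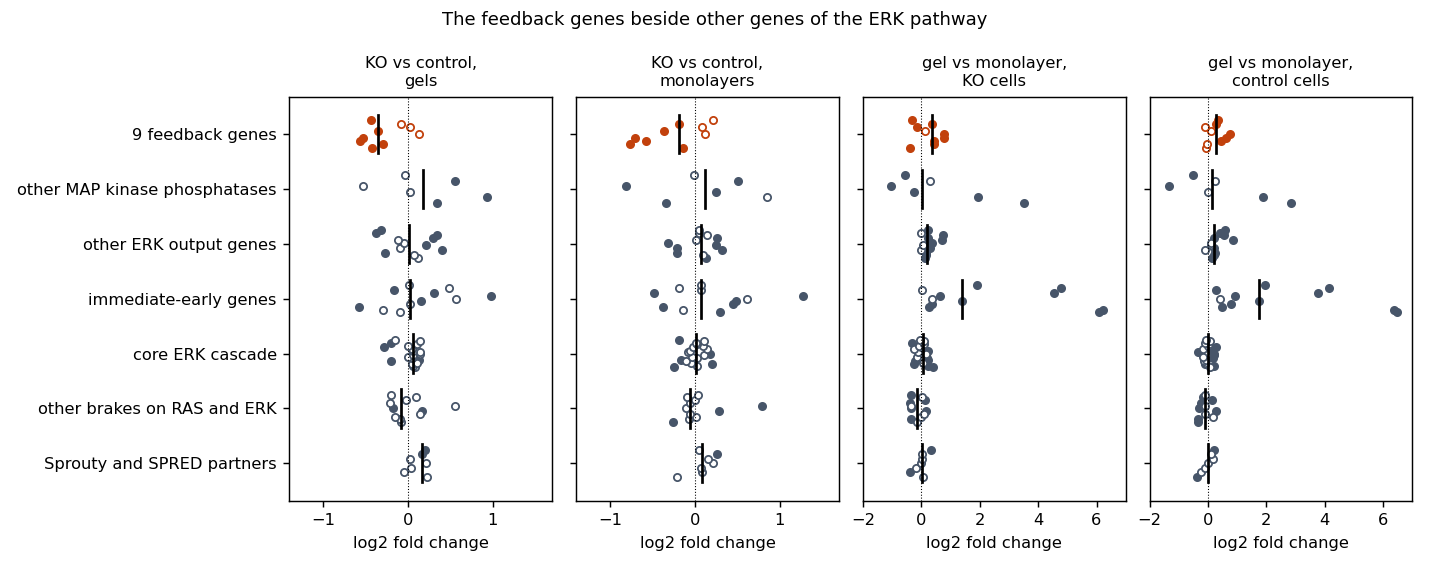
Log2 fold changes of the 9 feedback genes and of 6 lists of other ERK pathway genes in 4 comparisons. Each point is a tested gene, filled with an adjusted p under 0.05, and bars are list medians. The feedback genes have medians of -0.36 and -0.18 for the knockout in gels and monolayers, and immediate-early genes medians of 1.41 and 1.74 for gels in knockout and control cells.

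The genes closest in pattern were found among 10878 other genes with a mean of at least 5 CPM, by the smallest root mean square difference in centred log2 CPM over the 8 libraries. For DUSP6 these were CD9, a tetraspanin gene, at 0.051, and CSRP1 at 0.052, where DUSP6 itself varied by 0.36 about its mean. CD9 averaged 116 CPM in knockout gels, 179 in control gels, 82.8 in knockout monolayers and 129 in control monolayers. For DUSP4 the nearest was TIMP2 at 0.026, an inhibitor of metalloproteinases, with 282, 374, 352 and 405 CPM in the groups in the same order. DUSP5 was nearest to TBC1D4 (0.055) and SAMD4A (0.063), SPRY4 to SOX9 (0.040) and OSBPL10 (0.046), and SPRY1 to MPP4 (0.096) and PLXNA2 (0.098). SPRY2 was nearest to XK (0.079) and IRX5 (0.096), SPRED1 to KAZN (0.036) and SNX25 (0.036), SPRED2 to CCNB2 (0.040) and MYH9 (0.046), and SPRED3 to RALGDS (0.071) and MAPK7 (0.082). Each distance is to be read beside the variation of its own gene about its mean. That was 0.2 for DUSP4, 0.31 for DUSP5, 0.19 for SPRY4, 0.47 for SPRY1 and 0.4 for SPRY2. For SPRED1, SPRED2 and SPRED3 it was 0.093, 0.18 and 0.19. None of the 9 feedback genes was among the nearest 2 of another. With only 2 of 10878 candidates kept for each gene, this does not show whether the 9 share a pattern.

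The genes lie on different chromosomes of GRCh38. DUSP4 is on chromosome 8 (29333064 to 29350668, minus strand), DUSP5 on 10 (110497838 to 110511544, plus), DUSP6 on 12 (89347232 to 89353271, minus), SPRY1 on 4 (123396795 to 123403760, plus), SPRY2 on 13 (80335976 to 80340951, minus) and SPRY4 on 5 (142310427 to 142326455, minus). SPRED1 is on chromosome 15 (38252326 to 38357249, plus), SPRED2 on 2 (65310851 to 65432637, minus) and SPRED3 on 19 (38388421 to 38399587, plus). The library kit marks strand, and the sources used here do not say whether the counting used it, so reads of overlapping antisense genes may be shared. An antisense gene shares 1875 exon bases with DUSP6 and had 4 to 10 counts a library, and SPRY4-AS1 shares none with the exons of SPRY4 and had 43 to 65. The DUSP5 pseudogene DUSP5P1 had 12 to 26 counts a library, against 1530 to 3707 counts of DUSP5.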

How the data were processed

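The authors deposited 1 table of unnormalised read counts, with a row per gene symbol and a column for each of 8 libraries. The submitters' processing notes name FastQC 0.11.9, STAR 2.7.9a, featureCounts, R 4.1.1 and the build hg38, without saying what each was used for. No source used here gives the annotation or strand setting. All later steps were computed from these deposited counts. Genes passed edgeR's filterByExpr (minimum count 10), which kept 15568 genes holding 99.89% of counts. TMM factors were applied, and tests were run in edgeR 4.0.16 under R 4.3.3 with the robust quasi-likelihood F-test, on group means over all 8 libraries with 4 residual degrees of freedom and no replicate block. For DUSP6 the test had 34.3 degrees of freedom, most of them borrowed from other genes. Tests were two-sided, with Benjamini-Hochberg adjustment over the 15568 genes and a threshold of 0.05. The common dispersion was 0.00163. Libraries of a group differed by more than counting error (chi-squared per degree of freedom 2.48 to 6.03), so each was kept as a sample. Alternatives were other scalings, no filter, DESeq2 1.42.0, a replicate block, an offset on length and GC content, and leaving out each library. The same alternatives for genes past the 1.5-fold test (glmTreat) were chosen after seeing the data.

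Gene lengths and positions came from GENCODE v29 on GRCh38, and promoters from RefSeq. All 9 genes were named in every comparison, with up to 3 genes of each list by smallest adjusted p and the nearest 2 genes in pattern. The genes and lists were chosen with earlier results of these data known. Comparisons share groups: each group enters both a knockout and a culture comparison. Interval bounds use a 95% level.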

Additional observations from a re-analysis of the deposited data

Results flagged for a closer look

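The knockout effect differed between the cultures for 3 genes, by the interaction term over all 8 libraries. For DUSP5 the effect in gels minus that in monolayers was 0.47 on the log2 scale (adjusted p = 6.78e-05 by edgeR), with log2 changes of -0.29 in gels and -0.76 in monolayers. For DUSP4 the difference was -0.29 (adjusted p = 0.00247), with changes of -0.43 in gels and -0.14 in monolayers. SPRED3 had a difference of -0.65 (adjusted p = 0.00239), with -0.44 in gels and 0.21 in monolayers, at 294 to 452 counts a library. The label of the control monolayers names no Cas9, which cannot be told apart from the culture in these differences.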

How the results depend on the processing

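Over all alternatives no log2 value of the 9 genes that had passed changed sign, and of 675 values 634 kept their side of the threshold, 17 newly passed and 24 no longer did. The genes called numbered 6 to 7 for the knockout in gels, 5 to 6 in monolayers, 6 to 9 for gels in knockout cells, 4 to 6 in control cells and 2 to 3 for the interaction. The counts of the 9 genes pool falls and rises. Without control monolayer library 2, the monolayer falls of DUSP4 and SPRED2 were lost and SPRY2 passed upwards (log2 0.22). Without knockout monolayer library 2, those falls were also lost and SPRED3 passed upwards (log2 0.35). For the knockout in gels the added call was SPRY2, upwards. DESeq2 called fewer of all genes: 2386 against 3721 for the knockout in gels, 1741 against 2989 in monolayers, 4081 against 5915 for gels in knockout cells, 2364 against 4158 in control cells and 554 against 1028 for the interaction. Leaving out 1 library gave 2106 to 3914, 1848 to 3224, 4191 to 6028, 2144 to 4501 and 413 to 1334 in the same order, with fewer samples in each fit. Past a fold of 1.5, DESeq2 gave 0 of the 9 in all 4 comparisons, and upper-quartile factors and library size alone gave 0 for gels in control cells. Leaving out 1 library gave 0 to 1 for the knockout in monolayers, 0 to 2 for gels in knockout cells and 0 to 1 in control cells. The causes were not tested.

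The labels do not pair the replicate numbers, and correlations of replicate differences between groups ran from -0.0777 to 0.11. With the replicate block, SPRY2 passed in knockout gels (adjusted p = 0.0282), which made 7 genes, and no other call of the 9 changed. The block called 3937 of all genes for the knockout in gels, 3187 in monolayers, 6108 for gels in knockout cells, 4435 in control cells and 1203 for the interaction. With 2 libraries a group, SPRED3 at 294 to 452 counts is the least precise of the 9.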

Other observations

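DUSP1, the phosphatase gene of the immediate-early response, had knockout effects of opposite sign in the cultures. It had 524 and 534 CPM in knockout gels, against 410 and 429 CPM in control gels, and 46.2 and 45.9 CPM in knockout monolayers, against 55.3 and 61.4 CPM in control monolayers. It rose in gels (log2 0.34 ± 0.047, adjusted p = 1.06e-06 by edgeR) and fell in monolayers (log2 -0.34 ± 0.060, adjusted p = 8.64e-05), and the effects differed by 0.67 (adjusted p = 1.29e-07). Of the 11 tested immediate-early genes, 1 passed upwards and 4 downwards in the interaction. Those with the smallest adjusted p were JUNB (-0.43), ATF3 (0.78) and EGR1 (-0.33). Of the 12 other ERK-induced genes, PLAUR (-0.37) and MYC (0.27) passed. Of the 19 core cascade genes, EGFR (0.33), PTPN11 (0.29) and MAP2K1 (-0.27) passed. Among all tested genes, 2.67% passed upwards and 3.94% downwards. In knockout gels JUN changed by -0.58, ATF3 by 0.31 and EGR3 by 0.98 relative to control gels. EGR3 was low, at 3.54 ± 0.725 CPM in knockout gels, against 1.81 ± 0.315 CPM in control gels. In knockout monolayers JUNB changed by 0.45, EGR1 by 0.48 and JUN by -0.38 relative to control monolayers.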
